A study of Mus musculus with 58 samples.

Results

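The lipoprotein receptors of the LDL receptor family, together with the enzyme that degrades several of them, were measured as messenger RNA in 58 mice. Members were the rows of the count table with 9 symbols chosen by name, out of 15171 genes in all: *Lrp1*, *Lrp4*, *Lrp5*, *Lrp6*, *Lrp8*, *Lrp10*, *Vldlr*, *Sorl1* and *Mylip*. All 9 were found, and all 9 passed the filter on low counts, which removed 0 genes. The lowest count of any member in any mouse was 46, for *Lrp5*. The founding LDL receptor was not analysed here.

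Receptors of this family are membrane proteins with cysteine-rich ligand-binding repeats that take up lipoproteins, including those that carry APOE, the main lipid carrier of the brain. Most return to the surface after releasing their cargo in endosomes, and several also transmit signals, such as reelin signalling in neurons and Wnt signalling in many cells. *Mylip*, also called IDOL, is a ubiquitin ligase induced by the oxysterol-sensing liver X receptors (LXR), and it sends the receptors encoded by *Vldlr* and *Lrp8* to the lysosome.

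The mice were of the C57BL/6 background and homozygous for human *APOE3* (E3) or *APOE4* (E4) placed at the mouse *Apoe* locus, with both copies of the cholesterol transporter *Abca1* functional (*Abca1+/+*) or with 1 functional copy (*Abca1+/-*). In each genotype, mice aged 3 months received a controlled cortical impact on the left parietal cortex (TBI) or the craniotomy alone (sham), and cortex and hippocampus at the site were frozen together 14 days later. The 8 groups held 6 to 8 mice of both sexes, 29 sham and 29 TBI in all. Both are germline changes present in all cells, and every group, controls included, carried human in place of mouse *APOE*. Total counts ranged from 4421308 to 37877346 per mouse, and the median was 2.26 times higher in *Abca1+/-* than in *Abca1+/+* mice, so that depth and *Abca1* copies cannot be told apart. *Abca1* itself was lower in *Abca1+/-* mice, with a log2 fold change of -0.42 over all groups (standard error 0.09, adjusted p = 0.000816, edgeR's quasi-likelihood test), although individual mice overlapped: sham mice ranged from 28.9 to 42.4 CPM (read counts scaled to the library total) with 1 copy and from 33.3 to 60.8 CPM with both. Within groups the difference passed in E3 sham mice (-0.45, adjusted p = 0.00933) and not in E3 TBI (-0.71, 0.118), E4 sham (-0.35, 0.0783) or E4 TBI mice (-0.19, 0.724, edgeR). Markers of neurons, astrocytes, microglia and oligodendrocytes, and of the hippocampus, were above 0 in every mouse. The summed level of 6 choroid plexus markers ran from 11.2 to 2051 CPM, with a median of 20.7 CPM in sham and 23.6 CPM in TBI mice, and its part in the results was not tested. An *E4/Abca1+/-* TBI mouse (replicate 8) had the lowest summed level of 9 hippocampus markers, 484 CPM.

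The 9 genes lie on 8 chromosomes in the mouse build GRCm38 (GENCODE annotation), and their transcripts run from 3065 bases in *Mylip* to 14888 bases in *Lrp1*, which has 89 exons. *Lrp10* (chr14:54464137-54471497, plus strand) shares 11.2% of its exon bases with the antisense gene *Gm10366*, and *Sorl1* (chr9:41964720-42124297, minus strand) shares 1.73% with *Gm16214*. Neither antisense gene was analysed here, and whether counting used strand is not given in the sources used here, so reads of these pairs cannot be told apart. *Mylip* (chr13:45389742-45412022, plus strand) overlapped no other annotated exon.

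Promoter sequences were listed for 6 of the 9 members in a RefSeq table of GRCm38.p6, and not for *Lrp4*, *Lrp5* and *Lrp6*. The 250 bases before the start of *Mylip*, *Lrp10* and *Sorl1* are shown because *Mylip* had the highest rise and *Sorl1* the deepest fall of the family after injury, and *Lrp10* was the member whose sham and TBI groups were apart in most genotypes. Capitals mark matches, on either strand, to CCAAT (the CCAAT box), GGGCGG (the GC box), CACGTG (the E-box) and TATAAA (the TATA box). The cyclic AMP response element TGACGTCA, the AP-1 site TGANTCA, the sterol response element and the LXR response element, a direct repeat of AGGTCA with 4 bases between, were also searched. No member's window held a match to any of the last 4 motifs.

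Mylip (chr13:45389492-45389741, plus strand): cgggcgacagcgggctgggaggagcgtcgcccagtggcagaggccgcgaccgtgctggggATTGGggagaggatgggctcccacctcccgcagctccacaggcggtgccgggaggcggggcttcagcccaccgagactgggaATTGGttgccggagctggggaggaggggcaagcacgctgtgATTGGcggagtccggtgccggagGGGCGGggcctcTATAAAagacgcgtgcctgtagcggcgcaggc

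Lrp10 (chr14:54463897-54464146, plus strand): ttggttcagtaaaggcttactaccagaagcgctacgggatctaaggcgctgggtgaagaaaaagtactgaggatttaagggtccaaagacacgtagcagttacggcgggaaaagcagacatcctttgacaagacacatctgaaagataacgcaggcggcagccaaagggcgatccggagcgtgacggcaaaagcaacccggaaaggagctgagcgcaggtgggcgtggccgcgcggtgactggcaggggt

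Sorl1 (chr9:42124298-42124547, minus strand): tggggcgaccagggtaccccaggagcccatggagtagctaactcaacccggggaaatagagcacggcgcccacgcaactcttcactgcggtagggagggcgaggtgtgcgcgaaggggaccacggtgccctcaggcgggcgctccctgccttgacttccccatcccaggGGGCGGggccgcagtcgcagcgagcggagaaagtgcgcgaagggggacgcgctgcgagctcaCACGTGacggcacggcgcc

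The *Mylip* window held 3 CCAAT boxes, all on the reverse strand as ATTGG, at 190, 108 and 67 bases before the start, with a GC box 44 and a TATA box 32 bases before it. In *Sorl1* a GC box stood 81 and an E-box 19 bases before the start. The *Lrp10* window held none of the 8 motifs. Among 32851 mouse promoter windows of the same length, a CCAAT box was present in 33.8%, a GC box in 32.7%, a TATA box in 12.4% and an E-box in 6.02%. *Mylip* and *Sorl1* thus shared the GC box, and no motif was common to all 3 because the *Lrp10* window held none. A GC box also stood in the windows of *Lrp1* and of a listed start of *Vldlr*. Another listed start of *Sorl1*, not shown, had no match. Any part of these motifs in the response to injury was not tested. The 4 motifs without a match in any member were found in 1.55% (cyclic AMP response element), 6.75% (AP-1), 0.0731% (sterol) and 0.0152% (LXR) of all windows.

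In sham mice the family spanned an 11.4-fold range of level once the length of the longest transcript was taken into account. *Lrp1*, the large endocytic receptor for APOE and protease inhibitors, had 28.5 ± 5.07 CPM per kilobase (SD, n = 29), and *Sorl1*, which carries the amyloid precursor protein between endosomes and the Golgi, had 27.9 ± 3.91. *Lrp8* and *Vldlr*, the reelin receptors, followed with 14.3 ± 1.17 and 13.4 ± 0.80 CPM per kilobase. *Lrp10*, a sorting receptor of the trans-Golgi network, *Lrp4*, the agrin receptor, and *Mylip* stood at 7.60 ± 0.69, 6.38 ± 0.76 and 6.04 ± 0.59. The Wnt co-receptors were lowest, with 5.50 ± 0.50 for *Lrp6* and 2.49 ± 0.34 for *Lrp5*. Neighbours in this order differed by more than the larger SD between *Sorl1* and *Lrp8*, *Vldlr* and *Lrp10*, *Lrp10* and *Lrp4*, and *Lrp6* and *Lrp5*, and by less for the other pairs. *Vldlr* was the steadiest member among mice, with a coefficient of variation of 6.01% in sham mice, and *Lrp1* the most variable, at 17.8%. After TBI *Lrp5* varied most, at 22.8%.

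**Figure D1:**
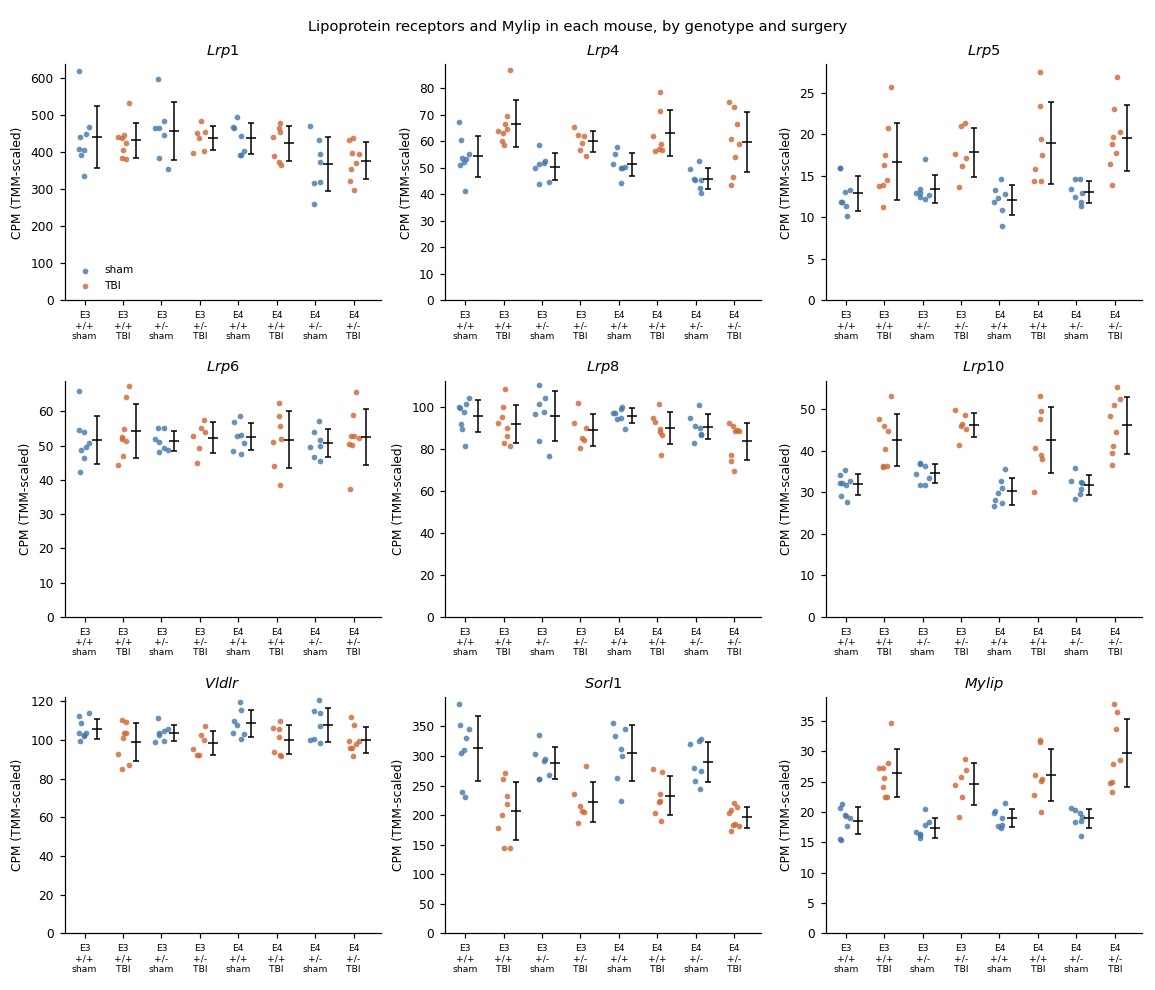
TMM-scaled CPM of the 9 members in each of the 58 mice, by genotype and surgery (sham blue, TBI orange), with the mean and SD of each group in black beside its points and axes that start at 0. Mylip, Lrp10, Lrp5 and Lrp4 had higher and Sorl1, Vldlr and Lrp8 lower group means in TBI mice of every genotype (for Lrp5 in E3/Abca1+/+ mice with an adjusted p of 0.0505), with the groups of Lrp10 apart in 3 genotypes. Vldlr and Lrp8 differed by less than Sorl1 and did not pass in any single genotype with edgeR.

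To examine the response to injury, TBI mice were compared with sham mice within each genotype and over all 4 genotypes together. Over all genotypes *Mylip*, *Lrp5*, *Lrp10* and *Lrp4* were higher after TBI, *Sorl1*, *Vldlr* and *Lrp8* were lower, and *Lrp1* and *Lrp6* did not pass the test. These were 7 of 9 members called at an adjusted p under 0.05, where 53.3% of all 15171 genes were called (29% higher and 24.3% lower), so that a call in this comparison was common. The median log2 fold change was 0.03 over the 9 members and 0.01 over all genes. In bulk tissue, fewer cells of a type and less RNA per cell cannot be told apart.

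*Mylip* ranged from 15.4 to 21.5 CPM in the 29 sham mice (median 18.5) and from 19.2 to 37.8 CPM in the 29 TBI mice (median 25.9). Of the TBI mice, 27 lay above the highest sham mouse, and all 29 lay above the sham median. The log2 fold change over all genotypes was 0.52 (standard error 0.05, adjusted p = 2.78e-13, edgeR's quasi-likelihood test). In *E3/Abca1+/+* mice *Mylip* went from 15.4 to 21.4 CPM in sham (median 19.2) to 22.4 to 34.7 CPM in TBI (median 26.4). In *E4/Abca1+/-* mice the ranges were 16.1 to 20.7 CPM in sham (median 19.2) and 23.4 to 37.8 CPM in TBI (median 28.3). The 2 groups did not overlap in either genotype. Ranges met in *E3/Abca1+/-* mice, with sham at 15.8 to 20.5 CPM and TBI at 19.2 to 28.8 CPM, and in *E4/Abca1+/+* mice, with sham at 17.4 to 21.5 CPM and TBI at 20.1 to 31.8 CPM. A single TBI mouse reached below the highest sham mouse in each of these genotypes. Log2 fold changes were 0.47, 0.50, 0.45 and 0.61 in *E3/Abca1+/+*, *E3/Abca1+/-*, *E4/Abca1+/+* and *E4/Abca1+/-* mice, with standard errors from 0.09 to 0.10 and adjusted p from 0.000209 to 0.00401 (edgeR). All genes together were called in 23.3%, 23.8%, 14.1% and 34% of cases in these 4 comparisons.

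The sorting receptors moved in opposite directions. *Sorl1* fell from 224 to 388 CPM in sham mice (median 304) to 144 to 283 CPM in TBI mice (median 209). All 29 TBI mice lay below the sham median, and 20 lay below the lowest sham mouse. *Sorl1* decreased by a log2 fold change of -0.48 over all genotypes (standard error 0.06, adjusted p = 2.14e-10, edgeR). The decrease was -0.61 in *E3/Abca1+/+*, -0.38 in *E3/Abca1+/-*, -0.40 in *E4/Abca1+/+* and -0.59 in *E4/Abca1+/-* mice, past the threshold in each (adjusted p from 1.05e-05 to 0.0155, edgeR). Sham and TBI mice did not overlap in *E4/Abca1+/-*, where sham mice had 244 to 328 CPM (median 279) and TBI mice 173 to 221 CPM (median 194). In the other 3 genotypes the ranges overlapped, with sham mice from 224 to 388 CPM and TBI mice from 144 to 283 CPM.

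*Lrp10* ranged from 26.6 to 37.1 CPM in sham mice (median 32.3) and from 30.1 to 55.5 CPM in TBI mice (median 45.1), and 24 of 29 TBI mice were above every sham mouse. Its log2 fold change was 0.47 over all genotypes (standard error 0.04, adjusted p = 1.90e-13, edgeR). The *E3/Abca1+/+* sham group had 27.8 to 35.3 CPM and the TBI group 36.0 to 53.2 CPM. The same ranges were 31.9 to 37.1 and 41.3 to 49.8 CPM in *E3/Abca1+/-* mice, and 28.3 to 35.9 and 36.5 to 55.5 CPM in *E4/Abca1+/-* mice. TBI and sham mice were thus apart in 3 genotypes, which held for 4.36%, 6.57% and 7.36% of all genes in the upward direction. In *E4/Abca1+/+* mice 1 of 7 TBI mice, at 30.1 CPM, lay within the sham range of 26.6 to 35.6 CPM. Log2 fold changes were 0.39, 0.42, 0.49 and 0.51 in the order of genotypes given above (adjusted p from 2.67e-05 to 0.00578, edgeR). On the same measure of separation, *Mylip* was apart in 2 genotypes and *Sorl1* in 1, where 2.39% of all genes were apart in the downward direction.

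*Lrp5* and *Lrp6* are paired co-receptors that join Frizzled proteins at the surface to receive Wnt ligands, and of the pair *Lrp5* was called. *Lrp5* ranged from 8.92 to 17.1 CPM in sham mice (median 12.9) and from 11.3 to 27.5 CPM in TBI mice (median 17.5), with 17 of 29 TBI mice above the highest sham mouse. The log2 fold change was 0.50 (standard error 0.07, adjusted p = 7.89e-09, edgeR). By genotype it was 0.37 in *E3/Abca1+/+* mice, where the adjusted p of 0.0505 missed the threshold, and 0.41, 0.62 and 0.55 in *E3/Abca1+/-*, *E4/Abca1+/+* and *E4/Abca1+/-* mice, where it passed (adjusted p from 0.0012 to 0.00875, edgeR). In *E3/Abca1+/+* mice *Lrp5* passed in 6 of 16 fits with 1 mouse left out. These were TBI replicate 1, 2, 3 or 5 and sham replicate 1 or 5 (adjusted p from 0.0203 to 0.0418). The others reached up to 0.111, without TBI replicate 8, where the log2 fold change was 0.26. *Lrp5* also passed with sex as a covariate (0.0472) and in a single fit over all 58 mice (0.0265). The same held with the filter within the fit (0.0491) and with DESeq2's Wald test (0.0431). It did not pass with DESeq2's size factors, or after every library was thinned to the lowest total (0.0596). In *E3/Abca1+/-* mice the log2 fold change was 0.29 (adjusted p = 0.229) after the same thinning. The isoform by TBI interaction, which tests whether these responses differ between E3 and E4, gave 0.21 for *Lrp5* (standard error 0.14, adjusted p = 1.00, edgeR). *Lrp6* had 42.4 to 65.9 CPM in sham mice (median 50.9) and 37.3 to 67.4 CPM in TBI mice (median 52.4), so that TBI mice lay on both sides of the sham range. Its log2 fold change was 0.03 with a standard error of 0.04 (adjusted p = 0.590, edgeR).

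*Lrp4*, which binds agrin and activates the kinase MuSK at the neuromuscular junction and is also made by brain cells, ranged from 40.5 to 67.3 CPM in sham mice (median 51.0) and from 43.4 to 86.7 CPM in TBI mice (median 61.8). Only 6 TBI mice exceeded the highest sham mouse, but 27 of 29 exceeded the sham median. The log2 fold change was 0.31 over all genotypes (standard error 0.05, adjusted p = 1.21e-07, edgeR) and 0.29, 0.25, 0.30 and 0.35 by genotype, past the threshold in all 4 (adjusted p from 0.00817 to 0.0197, edgeR). In *E3/Abca1+/-* mice it missed the threshold after thinning, at 0.19 (adjusted p = 0.0857), and in a single fit over all 58 mice (adjusted p = 0.0575).

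The receptors that neurons use for reelin changed little. *Vldlr* ranged from 98.4 to 120 CPM in sham mice (median 104) and from 84.8 to 112 CPM in TBI mice (median 99.6), and 13 of 29 TBI mice lay below the lowest sham mouse. Its difference of -0.10 on the log2 scale (standard error 0.03, adjusted p = 0.0012, edgeR) passed the threshold over all genotypes, and the values of -0.11, -0.07, -0.12 and -0.14 in single genotypes did not with edgeR (adjusted p from 0.0586 to 0.231). In *E4/Abca1+/-* mice *Vldlr* passed in 5 of 15 fits with 1 mouse left out. These were sham replicate 1, 2 or 5 and TBI replicate 4 or 7 (adjusted p from 0.0238 to 0.0470), and the others reached up to 0.132. *Vldlr* also passed with sex as a covariate (0.0335) and with DESeq2's Wald test (0.0449). After thinning its difference was -0.08 (adjusted p = 0.450). *Lrp8* ranged from 76.6 to 111 CPM in sham mice (median 96.8) and from 69.5 to 109 CPM in TBI mice (median 89.1). The ranges nearly coincided, although 25 of 29 TBI mice lay below the sham median. The log2 fold change was -0.09 over all genotypes (standard error 0.03, adjusted p = 0.0173, edgeR) and from -0.07 to -0.14 in single genotypes, where no adjusted p passed (0.106 to 0.485).

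*Lrp1* had 260 to 618 CPM in sham mice (median 433) and 298 to 531 CPM in TBI mice (median 424). The sham range enclosed every TBI mouse. A log2 fold change of -0.02 with a standard error of 0.05 did not pass the test (adjusted p = 0.740, edgeR), and values in single genotypes lay between -0.06 and 0.01.

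**Figure D2:**
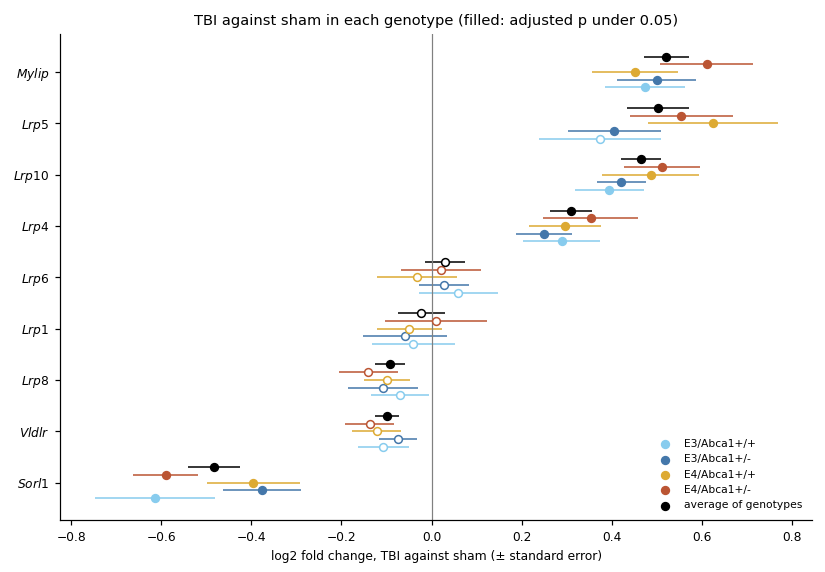
Log2 fold change of each member in TBI against sham mice, with its standard error as a bar, in each genotype (colours) and over all genotypes (black). Filled points passed an adjusted p under 0.05. Mylip, Lrp10, Lrp4 and Sorl1 passed in all 4 genotypes and Lrp5 in 3, while Vldlr and Lrp8 passed only over all genotypes.

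Markers of other cells moved with these genes. All 12 microglia markers were higher after TBI, and their summed level went from 426 to 708 CPM in sham mice to 829.3 to 2021 CPM in TBI mice. All 8 astrocyte markers were higher (5514 to 7052 CPM against 6912 to 11140 CPM), as were 6 of 7 markers of border or infiltrating macrophages (7.53 to 65.7 CPM against 59.3 to 683 CPM) and 5 of 6 fibroblast markers (139 to 244 CPM against 105 to 425 CPM). Of 12 neuron markers 10 were lower, and their sum went from 13140 to 14870 CPM in sham mice to 10210 to 13460 CPM in TBI mice. Among the macrophage markers *Ccr2* was at 0 in 4 mice, *Ms4a7* in 3 and *Pf4* in 1. Oligodendrocyte markers were higher for 3 and lower for 1 of 8, endothelial markers higher for 5 of 8, mural markers for 2 of 6 and those of oligodendrocyte precursors for 2 of 5. In this comparison 29% of all genes were higher and 24.3% lower. None of the 6 choroid plexus markers was called, and 2 of 9 hippocampus markers were higher and 2 lower. The part of these shifts in the changes of the receptors was not tested.

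Within the 29 injured mice, 3 of the 9 members tracked a microglia score, the mean log2(CPM + 1) of the 12 microglia markers. The share of all genes that would pass the same test was not computed, so this count has no background to be set against. Across mice *Mylip* had a Pearson r of 0.742 and a Spearman rho of 0.760 (both adjusted over 9 correlations, p = 4.5e-05 and 9e-05, permutation test, two-sided), and an r of 0.731 without the 2 mice farthest from the median score. The r was 0.763 in the 15 *Abca1+/+* and 0.771 in the 14 *Abca1+/-* injured mice. For *Lrp5* r was 0.709 and rho 0.706 (adjusted p = 4.5e-05 and 0.000225, permutation test), with 0.685 without the farthest 2 mice, 0.754 in *Abca1+/+* and 0.659 in *Abca1+/-* mice. *Lrp10* gave 0.677 and 0.634 (adjusted p = 0.00021 and 0.00135, permutation test) and 0.726 without those mice, but 0.797 in *Abca1+/+* and 0.406 in *Abca1+/-* mice, a difference that was not tested. The adjusted p of *Mylip* and *Lrp5* for Pearson's r rests on the smallest p that 100000 resamples can give. The permutations ran over all 29 injured mice, across genotype and sex. The median score was 5.88 in *E4/Abca1+/+* and 6.61 in *E4/Abca1+/-* TBI mice, and the part of differences between groups or sexes in these correlations was not tested.

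*Lrp6* and *Sorl1* did not pass after adjustment. *Lrp6* had an r of 0.406 and rho of 0.409 (unadjusted p = 0.0283 and 0.0279, adjusted p = 0.0637 and 0.0628, permutation test), and *Sorl1* an r of -0.384 and rho of -0.326 (unadjusted p = 0.0406 and 0.0862, adjusted p = 0.0730 and 0.155). For *Lrp1*, *Lrp4*, *Lrp8* and *Vldlr* r lay between -0.229 and -0.043. *Lrp4*, which was higher after TBI in every genotype, thus had an r of -0.043 with the score among injured mice.

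**Figure D3:**
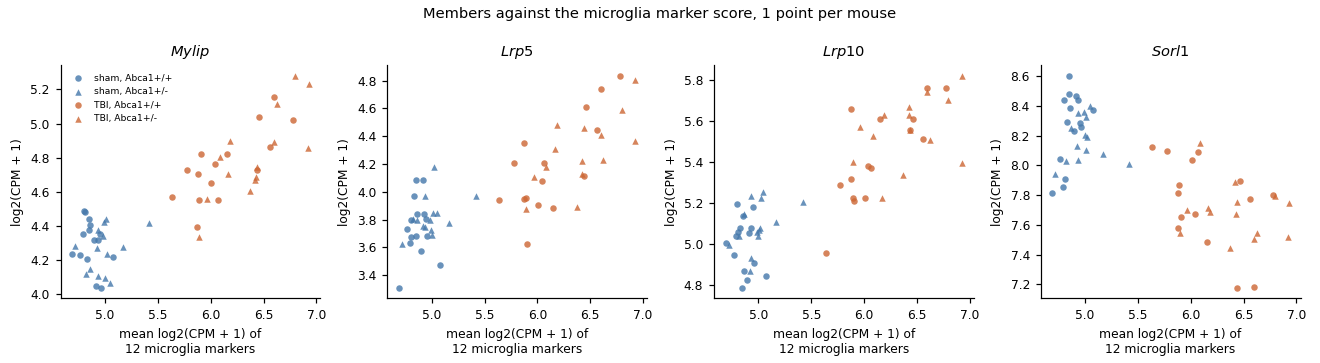
log2(CPM + 1) of 4 members against the microglia score, the mean log2(CPM + 1) of 12 microglia markers, with 1 point per mouse (sham blue, TBI orange, circles Abca1+/+, triangles Abca1+/-). Among the TBI mice Mylip, Lrp5 and Lrp10 were higher where the score was higher (Pearson r of 0.742, 0.709 and 0.677), and Sorl1 spread widely (r of -0.384).

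The genes with the most similar profile over all 58 mice differed from member to member. For *Sorl1* they were the ion channel genes *Kcnq3*, *Scn8a* and *Kcnma1*, with a Pearson r of log2(CPM + 1) of 0.947, 0.932 and 0.922. *Mylip* was nearest to *Tgfbr2*, *Plcg2* and *Fyb* (0.918, 0.914 and 0.908), and *Lrp10* to *Tsc22d4*, *Efemp2* and *Ddr1* (0.929, 0.921 and 0.921). *Lrp5* was nearest to *Tns3*, *Slc7a2* and *Gpam* (0.894 to 0.892), and *Lrp4* to *Notch2*, *Myo6* and *Igdcc4* (0.838 to 0.818). For *Lrp1* the nearest were *Ubr4*, *Kmt2d* and *Zmiz1* (0.804 to 0.790), and for *Lrp6* they were *Tnpo1*, *Heg1* and *Wnk1* (0.817 to 0.754). *Lrp8* had *Prkab2*, *Nedd4l* and *D630045J12Rik* (0.755 to 0.730), and *Vldlr* had *Fam210a*, *Zdhhc21* and *Mdga2* (0.758 to 0.722). These values are descriptions over mice that share the injury, the genotype and the depth of their libraries. The strongest pair of members was *Lrp5* with *Lrp10* (r = 0.801 over 58 mice), followed by *Lrp5* with *Mylip* (0.784) and *Lrp10* with *Mylip* (0.772). After the mean of each of the 8 groups was removed, these 3 fell to 0.587, 0.589 and 0.470, while *Lrp5* with *Lrp6* rose from 0.555 to 0.761 and became the strongest pair. *Sorl1* with *Mylip* went from -0.628 to -0.013.

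To examine the *APOE* isoform and the *Abca1* copies, the members were compared between genotypes within each surgery group. None of the 9 members was called in any of the 8 comparisons, nor in the isoform or *Abca1* effect averaged over groups, with edgeR's quasi-likelihood test. At an unadjusted p under 0.05 the count was 1 of 9 for the isoform average (*Lrp1*) and 2 of 9 for the *Abca1* average (*Lrp4* and *Lrp10*), where 28.2% and 30.2% of all genes had such a p. At the adjusted threshold 15% of all genes were called in the isoform average and 17.9% in the *Abca1* average. For *Abca1* copies within groups the share was 2.2% in E3 sham, 0.178% in E3 TBI, 0.903% in E4 sham and 1.39% in E4 TBI mice. For the isoform it was 0.349% in sham and 0.211% in TBI mice with both *Abca1* copies, and 5.13% and 2.9% in those with 1. These comparisons share mice: each group serves as 1 arm of an isoform and of an *Abca1* comparison.

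*Lrp1* came nearest for the isoform. Its mean was 439 CPM in *E3/Abca1+/+* sham mice and 436 CPM in *E4/Abca1+/+* sham mice, but 456 CPM in *E3/Abca1+/-* against 366 CPM in *E4/Abca1+/-* sham mice. After TBI the same means were 431 and 423 CPM with both *Abca1* copies, and 437 and 376 CPM with 1 copy. In mice with 1 functional *Abca1* copy the E4 means were lower, with a log2 fold change of -0.31 in sham (standard error 0.12, unadjusted p = 0.0215, adjusted p = 0.142) and -0.24 in TBI (standard error 0.08, unadjusted p = 0.00966, adjusted p = 0.122, edgeR). With both copies it was -0.01 in sham and -0.02 in TBI mice. The ranges overlapped in both: 355 to 596 against 260 to 470 CPM in sham, and 397 to 483 against 298 to 438 CPM in TBI. Averaged over groups the isoform difference was -0.14 (standard error 0.05, adjusted p = 0.0560, edgeR), and it passed the threshold with sex as a covariate (adjusted p = 0.0410) and with DESeq2's Wald test (0.0459). The test of whether the isoform difference depended on *Abca1* gave -0.25 (standard error 0.10, unadjusted p = 0.0199, adjusted p = 0.282, edgeR), so the pattern did not pass the threshold. Of all genes 0.0659% were called in that test, and 13.5% had an unadjusted p under 0.05. In the isoform comparisons with 1 *Abca1* copy, 23.2% (sham) and 18.7% (TBI) of all genes had such a p. Between *Abca1* genotypes within E4, *Lrp1* had -0.25 in sham (unadjusted p = 0.0276, adjusted p = 0.250) and -0.19 in TBI mice (0.0398 and 0.247, edgeR). Within E3 it had 0.05 in sham and 0.02 in TBI mice. In the *Abca1* comparisons within E4, 15.7% (sham) and 18.2% (TBI) of all genes had an unadjusted p under 0.05.

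Among the *Abca1* comparisons *Lrp4* was lower in *Abca1+/-* mice by a log2 fold change of -0.13 over all groups (standard error 0.05, adjusted p = 0.0542, edgeR) and had -0.10, -0.16, -0.16 and -0.10 in E3 sham, E3 TBI, E4 sham and E4 TBI mice. Over all groups it passed with DESeq2's size factors (adjusted p = 0.0460) and DESeq2's Wald test (0.0386), and after every library was thinned to the lowest total it was -0.10 (adjusted p = 0.151). *Lrp10* had 0.11 over all groups (standard error 0.04, adjusted p = 0.0873, edgeR) and 0.07 after thinning (adjusted p = 0.334). *Sorl1* in injured E4 mice had the smallest p of any member in a single *Abca1* comparison, at 190 to 278 CPM in *Abca1+/+* (median 224) and 173 to 221 CPM in *Abca1+/-* mice (median 194). The ranges overlapped, and the log2 fold change of -0.26 (standard error 0.08, unadjusted p = 0.00469) had an adjusted p of 0.104 with edgeR and of 0.0375 with DESeq2's Wald test. *Abca1* itself did not pass between these 2 groups. *Mylip*, the LXR-induced member, had -0.01 over all groups (standard error 0.05, adjusted p = 0.951, edgeR).

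The response to TBI was then compared between isoforms and between *Abca1* genotypes. No member was called in the isoform by TBI or in the *Abca1* by TBI interaction with edgeR, with 0.00659% and 0% of all genes called. At an unadjusted p under 0.05 the count was 0 of 9 in both, where 2.79% and 2.64% of all genes had such a p. The interaction estimates of the 9 members ran from -0.04 to 0.21 for the isoform and from -0.04 to 0.09 for *Abca1*, with standard errors from 0.05 to 0.14. *Lrp5* had the highest estimate for the isoform (0.21, standard error 0.14) and *Mylip* for *Abca1* (0.09, standard error 0.10).

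**Figure D4:**
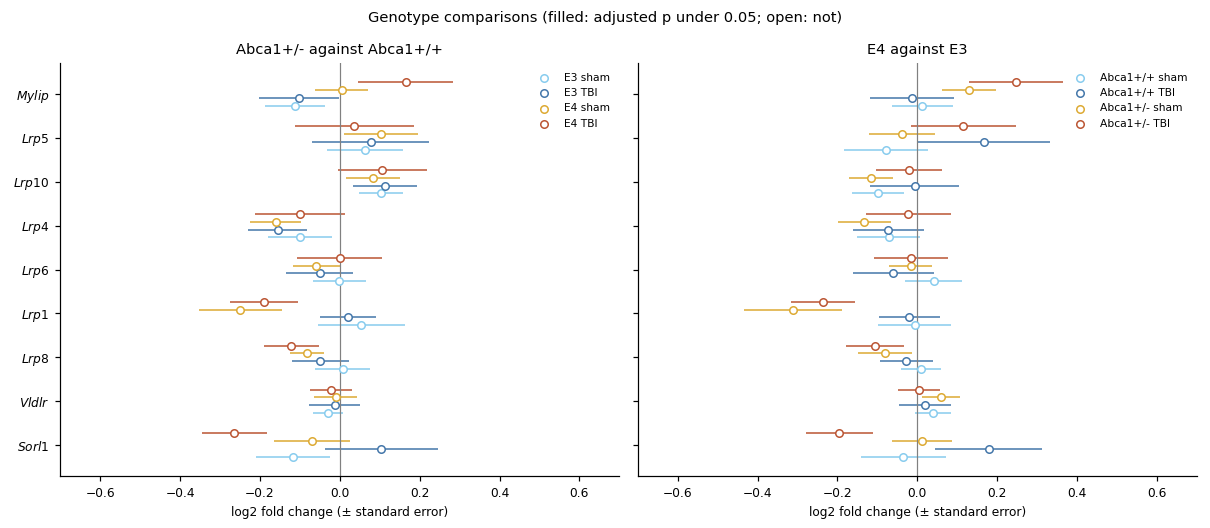
Log2 fold change of each member between genotypes, with its standard error as a bar: Abca1+/- against Abca1+/+ mice on the left and E4 against E3 mice on the right, in each of the 4 groups of mice (colours). All points are open because no adjusted p was under 0.05, with Lrp1 lowest in E4 mice that had 1 functional Abca1 copy (-0.31 in sham and -0.24 in TBI).

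Both sexes were present in every group. Over all mice *Lrp5* was higher in females, by 0.20 on the log2 scale (standard error 0.06, adjusted p = 0.0347, edgeR), and was the only member called where 10.1% of all genes were. After thinning the value was 0.21 (adjusted p = 0.0867), so that 0 members were called. In sham mice *Lrp5* had 10.1 to 16.0 CPM in 14 females (median 12.9) and 8.92 to 17.1 CPM in 15 males (median 12.3). In TBI mice it had 14.0 to 27.5 CPM in 14 females (median 20.2) and 11.3 to 23.1 CPM in 15 males (median 15.9). The sexes overlapped in both, and the medians lay farther apart after injury. The sex by TBI interaction was 0.35 for *Lrp5* (standard error 0.12, unadjusted p = 0.00389, adjusted p = 0.384) and 0.24 for *Mylip* (standard error 0.09, unadjusted p = 0.0159, adjusted p = 0.494, edgeR), and 0 members were called in it, as were 0% of all genes. An unadjusted p under 0.05 was found for 7.47% of all genes in that interaction. *Lrp6*, the partner of *Lrp5*, had 0.12 for females against males (adjusted p = 0.0513) and *Lrp1* -0.14 (adjusted p = 0.0585, edgeR). Both passed with DESeq2's Wald test (adjusted p = 0.0384 and 0.0479) and without the mouse lowest in hippocampus markers (0.0407 and 0.0455, edgeR).

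**Figure D5:**
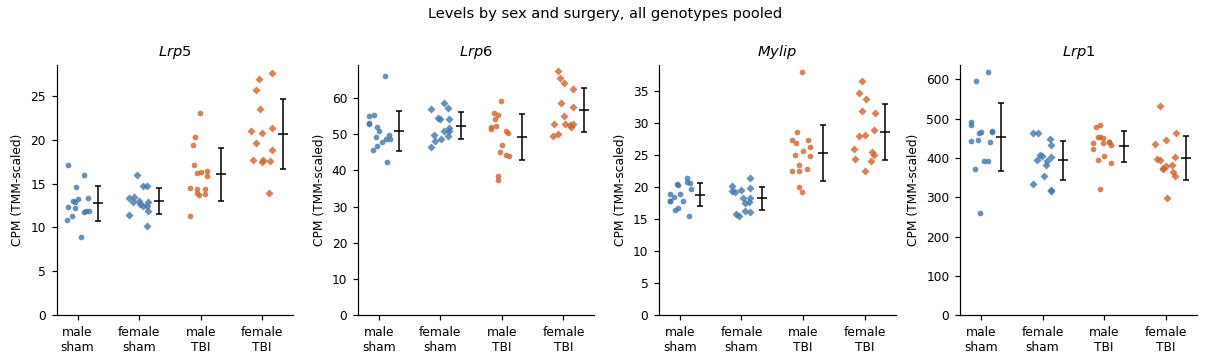
TMM-scaled CPM of 4 members by sex and surgery over all genotypes, with 1 point per mouse (males circles, females diamonds; sham blue, TBI orange), the mean and SD in black and axes that start at 0. Lrp5 had a median of 20.2 CPM in female and 15.9 CPM in male TBI mice, against 12.9 and 12.3 CPM in sham mice.

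The partners of these receptors were examined in the average of TBI against sham over genotypes, from lists of genes chosen for their role, and "rose" and "fell" stand for an adjusted p under 0.05 (edgeR), with sizes on the log2 scale. Of all genes 29% rose and 24.3% fell in this comparison, against which the counts of each list below are to be read. Ligands moved in 1 direction: 17 of 23 rose and 0 fell. The protease inhibitor *A2m*, a ligand of LRP1, went from 5.04 ± 5.01 to 106 ± 83.8 CPM (SD, n = 29 each), a log2 fold change of 4.37. *Apoc1*, an apolipoprotein, rose by 2.40 on the log2 scale. The ligands' median log2 fold change was 0.31, against 0.01 for all genes. *Lrp1*, which clears several of them, had a log2 fold change of -0.02.

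Among other receptors of the family and related sorting receptors, 3 of 11 rose and 6 fell (median log2 fold change -0.12). *Lrp2*, or megalin, rose by 0.74 from a low level of 0.649 ± 0.386 CPM, and *Ldlrad3* by 0.31. *Sorcs1*, *Ldlrad4* and *Sorcs3* fell by 0.34, 0.29 and 0.21. *Sorcs2* rose by 0.09, so that the *Sorl1*-related *Sorcs* genes did not all move the same way. Of the chaperones and adaptors that help receptors fold or enter the cell, 7 of 11 rose and 4 fell (median 0.10). The adaptors *Dab2* and *Gulp1*, which act in endocytosis and engulfment, rose by 0.91 and 0.52, and *Apbb1*, *Apba1* and *Mapk8ip2*, which bind receptor tails or the amyloid precursor protein in neurons, fell by 0.20, 0.18 and 0.15.

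In reelin signalling, downstream of *Lrp8* and *Vldlr*, 2 of 16 genes rose (*Rap1a* and *Cdh2*, by 0.15 and 0.14) and 6 fell, among them *Gsk3b*, *Pafah1b1* and *Dlg4*, by 0.15, 0.14 and 0.13, and the median was -0.05. Wnt signalling around *Lrp5* and *Lrp6* had 19 of 41 genes higher and 7 lower, with a median of 0.12. The inhibitor *Dkk2* rose by 0.62 from a low level of 0.86 ± 0.38 CPM. The transcription factors *Tcf7l1* and *Tcf7l2* rose by 0.62 and 0.60. *Tcf7l2* spread widely among mice, with 5.59 ± 6.16 CPM in sham and 8.19 ± 5.42 CPM in TBI mice. *Wnt10a* fell by 0.85, from 7.10 ± 1.38 to 3.90 ± 1.21 CPM, and *Wnt9a* and *Dkk3* fell by 0.38 and 0.31. Of 4 agrin and MuSK genes, the partners of *Lrp4*, 1 was called (median of the 4 genes 0.14): *Rapsn*, a scaffold of the neuromuscular junction, rose by 1.12 from 0.352 ± 0.180 CPM. In the retromer and sorting list around *Sorl1*, 5 of 15 rose (*Snx5* by 0.29, *Snx6* by 0.16 and *Vps26a* by 0.11) and 4 fell (*Vps29*, *Gga3* and *Vps26b* by 0.12, 0.11 and 0.05 for the first 3). The median of this list was -0.0018, and none of its called shifts was as large as that of *Sorl1*.

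Regulators of *Mylip* and of the receptors were split, with 7 of 20 higher, 5 lower and a median of -0.01. *Nr1h3*, which encodes LXR alpha, rose by 0.54 from 2.42 ± 0.553 to 3.56 ± 0.926 CPM, and *Nr1h2*, which encodes LXR beta, fell by 0.12 from 37.0 ± 4.87 to 33.8 ± 3.83 CPM. *Srebf1*, an LXR target that drives fatty acid synthesis, rose by 0.82, and *Adam17*, a protease that sheds receptor ectodomains, rose by 0.60. *Srebf2*, which drives cholesterol synthesis and receptor transcription, fell by 0.40 and *Insig1*, which helps retain it in the endoplasmic reticulum, fell by 0.46. *Abca1* itself rose by 1.77 in this comparison (standard error 0.10, adjusted p = 8.02e-23, edgeR). *Mylip* rose while *Nr1h3* rose and *Nr1h2* fell, and whether LXR activity changed was not tested. The shares of genes called in these lists stand against 53.3% over all genes, 29% higher and 24.3% lower.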

How the data were processed

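RNA was sequenced from cortex and hippocampus of 58 mice in 8 groups, set by *APOE* isoform, surgery and *Abca1* copies. The authors deposited raw read counts per gene, made with Subread 1.5.0 and featureCounts per the labels, which also name the build mm10. The table listed 15171 genes, and 2 blank lines were removed. Of 183 pairs of libraries from the same group, 0 held the same counts throughout.

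Counts were scaled to CPM with TMM factors (0.954 to 1.038) and compared with edgeR's quasi-likelihood test (edgeR 4.0.16, R 4.3.3) at a Benjamini-Hochberg adjusted p under 0.05 over all genes. Comparisons of 2 groups used only their mice, and averages and interactions all 58. A standard error is the log2 fold change divided by the root of its F statistic. Genes were filtered with filterByExpr over the 8 groups, which removed 0. Correlations used log2(CPM + 1) and two-sided permutation tests with 100000 resamples. Levels per kilobase used the longest annotated transcript. Tests were tried on simulated data. Total counts from 4421308 to 37877346 set the counting error of each member.

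Alternatives were DESeq2 1.42.0 (size factors, Wald test), no filter, 1 CPM in 6 mice, thinning to the lowest total, sex as a covariate, a single fit, each mouse left out (TBI against sham) and, for correlations, a pseudocount of 0.1 and standardized genes. A filter within each fit and leaving out the mouse lowest in hippocampus markers were chosen after seeing the data.

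The members and lists were chosen with earlier results of these data known. All 9 members are named in every comparison, up to 3 called genes per direction of each partner list, and for each member the 3 genes most correlated with it, except for some partner genes that are not reported here. Mice were numbered within groups in accession order, and the labels do not say which shared a litter or day.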

Additional observations from a re-analysis of the deposited data

Results flagged for a closer look

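In 72 sets of values (9 members in 8 groups), 5 had a mouse far above the rest of its group, as judged by the gap to the nearest other mouse over the range of the group, which chance gives in about 1 of 20 sets. *Lrp1* reached 618 CPM in an *E3/Abca1+/+* sham mouse (replicate 1), with the next mouse at 467 CPM. In *E3/Abca1+/+* TBI mice, replicate 8 was the highest for 3 members, with 531 CPM for *Lrp1* (next 445), 86.7 CPM for *Lrp4* (next 69.6) and 34.7 CPM for *Mylip* (next 28.1). *Lrp5* reached 17.1 CPM in an *E3/Abca1+/-* sham mouse (replicate 2), with the next at 13.4 CPM. In the comparison of TBI with sham mice, leaving out the first of these mice brought *Lrp5* past the threshold in *E3/Abca1+/+* mice (adjusted p = 0.0355, edgeR's quasi-likelihood test), and leaving out either of the other two changed no call of a member.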

How the results depend on the processing

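No result reversed its direction under any alternative run while past the threshold. The 7 members called over all genotypes stayed at 7 under each alternative, and the counts within genotypes (4 in *E3/Abca1+/+* and 5 in each of the others) stayed within 1.5 times, except that thinning every library to the lowest total left 3 in *E3/Abca1+/-* mice. Running without a filter or with 1 CPM in 6 mice kept all 15171 genes and so repeated the main run. The same held over all genotypes for the filter within the fit. These runs could not have changed the calls. When single mice were left out, the *E3/Abca1+/+* count was 4 to 5, that of *E4/Abca1+/-* was 5 to 6, and the others stayed at 5. Where edgeR called 0 members, DESeq2's Wald test called 1 for *Abca1* in injured E4 mice (*Sorl1*), 1 for the isoform average (*Lrp1*) and 1 for the *Abca1* average (*Lrp4*). Sex as a covariate also gave 1 for the isoform average and DESeq2's size factors 1 for the *Abca1* average. For female against male mice the count of 1 became 0 after thinning, 2 with DESeq2's size factors, 3 with DESeq2's Wald test and 3 without the mouse lowest in hippocampus markers. The cause was not tested. The 3 correlations with the microglia score passed under each of their 3 alternatives. No alternative moved the median log2 fold change of all genes by more than 0.03. No paired analysis was possible because the labels give groups no shared replicate numbers. The shallowest library held 4421308 counts, and *Lrp5*, with as few as 46 counts in a mouse, had the lowest counts of the members.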
